A study of Mus musculus with 18 samples.

Results

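Cancer cachexia, the loss of muscle and fat in a tumour-bearing host, was examined here in mice of the KPP model, in which a pancreatic tumour arises from the animal's own cells and is not implanted. The 4 libraries described are the 2 titled as KPP tumour bearing and the 2 titled as KPP controls, out of 18 libraries in the whole series. All 4 come from tibialis anterior (TA) muscle, a fast limb muscle, of mice on a C57BL/6 background. Per the labels, the tumour was induced with tamoxifen, the controls were animals of the genetic model without tumour, and muscles were taken when tumour-bearing mice had reached endpoint. As background, the inducible Cre of the published KPP mouse is driven by Ptf1a, a gene of pancreatic acinar cells. The labels name no allele, do not say whether the controls carried the model's alleles or were given tamoxifen, and give no sex, age or body weight. The other 14 libraries, used for comparison, are TA muscles of mice with implanted tumours and of their controls, again 2 per group. LLC cells went into muscle and C26 cells under the skin, each with PBS controls. KPC (50000 cells) and KPCML1 (1000 cells) were placed orthotopically and share Matrigel controls. The C26 mice and their controls are CD2F1, and all other groups C57BL/6.

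Muscle wasting is known to run through a small set of programmes. FoxO transcription factors and the glucocorticoid receptor switch on ubiquitin ligases such as atrogin-1 (Fbxo32) and MuRF1 (Trim63), which hand muscle proteins to the proteasome, while autophagy delivers organelles to the lysosome. Interleukin-6 through STAT3, NF-kB signalling and loss of IGF1 input are textbook routes into these programmes.

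Depth ran from 23320827 to 34573474 fragments in the 4 KPP libraries, against 22546541 to 36673780 over the series. Muscle identity was clear in each: Ckm, the muscle creatine kinase, lay at 21266, 25669, 21255 and 14186 CPM in control 1, control 2, tumour 1 and tumour 2, where CPM is a gene's count scaled to the normalised library size. Fragments of 7 pancreatic and gastric-type epithelial genes were few: Ptf1a, Tff1 and Cldn18 had 0 in each library, Cela1 had 2, 2, 2 and 1, and Pnlip, Tff2 and Prss2 had 5, 3 and 1 in tumour 2 and 0 elsewhere. Keratin and cornified-envelope genes, which skin makes, took 792 CPM, here per library before normalisation, in control 1 and 256 in tumour 2, against 20.7 in control 2, 36.1 in tumour 1 and 9.93 to 179 in the other 14 libraries. These genes were kept in the fit and left out of the description. Of the 40 that could be tested, 22 came out lower and 3 higher in tumour muscle, and 30 had their highest level in control 1 and 7 in tumour 2. The 12 largest decreases by the naming rule held 6 further epidermal genes, Calm4, Fam25c, Dmkn, Ly6d, Pof1b and S100a14, at 9.87 to 57.3 CPM in control 1 and at most 0.499 CPM in control 2, so they are not described as changes of muscle. The non-polyadenylated RNAs Rn7sk and Rn7s1 lay at 109 and 375 CPM in tumour 2 and at most 6.99 and 42.8 CPM in the other 3 libraries. What part control 1 or tumour 2 has in the results was not tested beyond leaving each out, and those counts stand beside the results.

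Tumour and control muscle differed over a large part of the transcriptome. Of 16096 genes tested, 2805 (17.4%) were higher and 3107 (19.3%) lower in tumour muscle at an adjusted p under 0.05 (edgeR's quasi-likelihood test, Benjamini-Hochberg), and the median log2 fold change over all tested genes was -0.04. "Rose" and "fell" below mean that a gene passed this test. The shares of 17.4% and 19.3% are the background for each list count below. The lists were written with earlier results of these data known, so their counts describe the members and are not a test of the list. A count with a library left out has its own, lower background. Both tumour libraries lay above both controls in 30.2% of genes and below both in 33.9%. With control 1 left out, 1482 genes were higher and 1711 lower. In bulk muscle, fewer cells of a type and less RNA per cell cannot be told apart. Only 2 libraries stand in each group, so an exact permutation test of a single value cannot go below p = 0.333, and single shares below are given without a test.

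**Figure D1:**
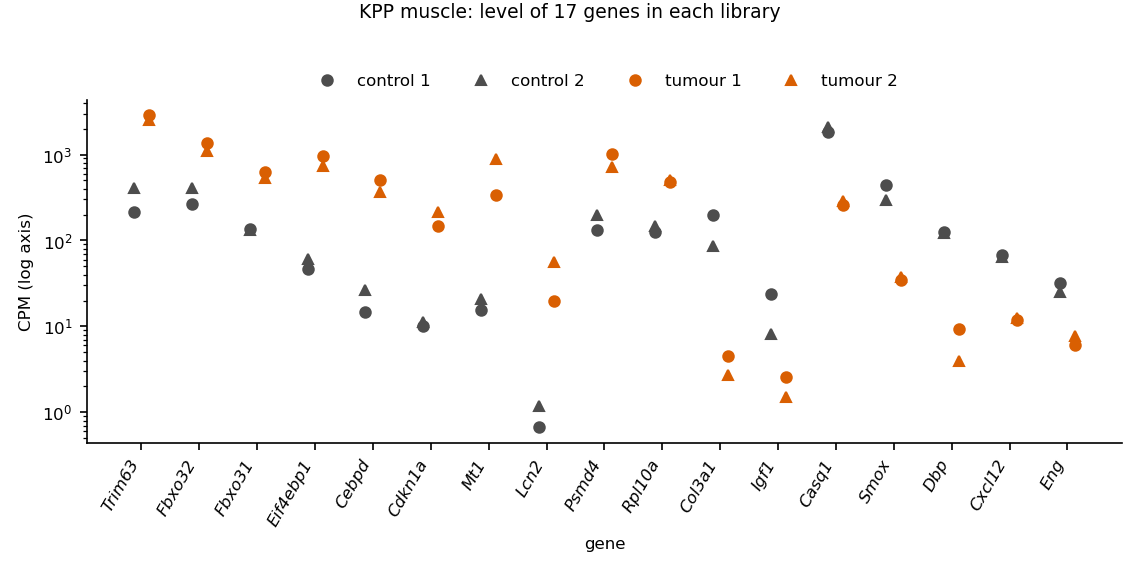
Level of 17 genes in each of the 4 KPP libraries, as CPM on a log axis (grey, controls; orange, tumour; circles, replicate 1; triangles, replicate 2). For each of the 17, both tumour libraries lie on the same side of both controls, from falls such as Dbp (126 and 123 against 9.33 and 3.94 CPM) to rises such as Cebpd (14.9 and 26.3 against 510 and 367 CPM).

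The best known atrophy ligases rose strongly. Trim63, which tags myofibrillar proteins, was at 212 and 413 CPM in the controls and at 2853 and 2500 in tumour muscle, a log2 change of 3.10 ± 0.47 (SE; adjusted p = 0.000329). Fbxo32 was at 262 and 412 against 1380 and 1100 CPM (1.88 ± 0.33, adjusted p = 0.000784). Fbxo31, another F-box ligase, was at 136 and 132 against 633 and 540 CPM (2.13 ± 0.28). In all 3 the lowest tumour library was above the highest control by a wide margin. The ligase class as a whole did not follow: of 36 listed and tested members, 8 rose (22.2%) and 6 fell (16.7%), with a median log2 change of 0.17. Over all tested genes the shares were 17.4% and 19.3%. Klhl38 rose (28.4 and 33.9 against 107 and 144 CPM), whereas Kbtbd13, a thin-filament adaptor of the same Kelch family, fell from 17.4 and 18.7 to 2.6 and 2.21 CPM, a log2 change of -2.91 ± 0.41. Trim55, the MuRF2 relative of Trim63, fell by 0.89 on the log2 scale (SE 0.19). Without control 1, 4 ligases were higher and 4 lower.

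Genes of the proteasome and of autophagy moved more uniformly. Of 38 proteasome genes, 29 rose and 1 fell, with a median log2 change of 1.04; without control 1, 19 rose. Psmd4, a ubiquitin receptor of the regulatory particle, went from 133 and 199 to 1018 and 719 CPM (2.39 ± 0.28, adjusted p = 8.91e-05). Psmd2 (261 and 318 against 960 and 775 CPM) and the base ATPase Psmc1 (131 and 186 against 399 and 359 CPM) also rose, and no control library reached a tumour library in any of these. The member that fell was Psme4, an activator cap of the proteasome, at 305 and 297 against 223 and 177 CPM, a call lost when control 1, control 2 or tumour 2 was left out, in the 4 KPP libraries alone, with length-scaled counts and with no filter. Of 43 autophagy and lysosome genes, 22 rose and 4 fell, with a median of 0.55. Map1lc3b, which coats autophagosomes, was at 175 and 218 against 609 and 611 CPM (1.64 ± 0.17). The mitophagy receptor Bnip3 was at 167 and 254 against 872 and 883 CPM (2.06 ± 0.25). The acid glucosidase Gaa rose by 2.06 ± 0.28 on the log2 scale. Ulk2, a kinase that starts autophagy, fell from 119 and 110 to 44 and 20.9 CPM (-1.82 ± 0.29). The count that fell was 2 without control 2 or tumour 1 and 1 without tumour 2.

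Targets of FoxO and the glucocorticoid receptor rose as a group: 25 of 35 were higher and 2 lower, with a median log2 change of 1.81, and 23 stayed higher without control 1. Cebpd, a transcription factor of the acute response, went from 14.9 and 26.3 to 510 and 367 CPM (4.42 ± 0.43, adjusted p = 3.18e-05). Eif4ebp1, which holds back cap-dependent translation, went from 46.5 and 61.7 to 956 and 732 CPM (3.96 ± 0.36, adjusted p = 3.06e-05). Both tumour libraries were far above both controls in each of these genes. Depp1, a FoxO target, was at 4.32 and 10 against 110 and 112 CPM. The arrestin-domain gene Arrdc3 (26 and 34.8 against 309 and 264 CPM) and Fkbp5, the textbook glucocorticoid-induced co-chaperone (49.7 and 21.3 against 358 and 273 CPM), rose by 3.24 ± 0.32 and 3.15 ± 0.45. Klf15, a glucocorticoid target in muscle, was at 39.9 and 38.9 against 185 and 173 CPM. Foxo1 itself rose from 15.1 and 12.2 to 59.7 and 112 CPM (2.65 ± 0.56). Bcl6, a repressor, fell from 42.2 and 26 to 6.48 and 14.3 CPM. Sesn3 was at 15 and 12.6 against 5.61 and 7.45 CPM, a call lost with length-scaled counts (adjusted p = 0.518), and its TPM overlapped between the groups. In the authors' deposited table Sesn3 changed by -0.31 with an adjusted p of 0.722. Pdk4, the pyruvate dehydrogenase kinase that FoxO drives in fasting, did not pass: 368 and 1010 CPM in controls against 1029 and 524 in tumour muscle, so the groups overlapped (log2 0.17 ± 0.49, adjusted p = 0.809).

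Stress and growth-arrest genes included some of the largest rises. Cdkn1a, the cell cycle inhibitor p21, was at 10.2 and 11.3 against 146 and 212 CPM (4.07 ± 0.59, adjusted p = 0.000236). Sesn1, a brake on mTORC1, was at 23.6 and 33.8 against 401 and 582 CPM (4.10 ± 0.58). Btg2, an antiproliferative gene, was at 13.8 and 14.5 against 81.8 and 218 CPM. In the list of p53, p21 and GADD45 genes, 10 of 26 rose and 4 fell. Among the 4 was Perp, an epidermal gene as well, at 41.5 CPM in control 1 against 1.15, 1.4 and 2.54 in the other 3 libraries, a call lost without control 1, tumour 1 or tumour 2 and in the 4 KPP libraries alone. Without tumour 2, 2 genes of this list fell. Gadd45a rose from 23.7 and 33.9 to 110 and 64.9 CPM. Of 30 NRF2 antioxidant genes, 14 rose and 3 fell (median 0.78); without control 1, 7 rose. Nqo1, the classical NRF2 target, went from 15.3 and 20.5 to 42.7 and 58.7 CPM. Of 28 ATF4 genes, 10 rose and 5 fell, and 3 rose without control 1. The effector Ddit3 fell (log2 change -1.23 ± 0.27) while the phosphatase subunit Ppp1r15a rose (2.14 ± 0.33). Of 31 chaperone genes, 10 rose and 3 fell, among them the cytosolic Hsp90ab1, which rose (846 and 1072 against 3404 and 2888 CPM). Without control 1, 5 chaperone genes rose, and without tumour 1, 6; 1 fell without control 1, control 2 or tumour 1. Of 28 immediate early genes, 11 rose and none fell; without control 1 the count that rose was 7 and without tumour 2 it was 6, and 2 fell without control 2. Maff, a small partner of CNC factors, was at 4.49 and 7.54 against 71.5 and 130 CPM.

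Metallothioneins, small proteins that bind zinc and copper and that glucocorticoids and metals induce, rose more than any ligase. Mt1 was at 15.4 and 20.8 CPM in the controls and at 342 and 877 in tumour muscle (5.07 ± 0.72, adjusted p = 0.000207). Mt2 was at 11.7 and 19.2 against 255 and 661 CPM (4.90 ± 0.89, adjusted p = 0.000971). In both, tumour 2 stood above tumour 1, and tumour 1 stood well above both controls. The zinc importer Slc39a14 was at 10.9 and 13.4 against 91.6 and 126 CPM (3.17 ± 0.77), a call lost without control 1. Of the 16 genes of zinc handling listed, 4 rose and 3 fell, with a median of -0.02; without control 1 it was 2 and 1, without control 2 it was 3 and 1. The bases before the starts of Mt1 and Mt2, and of Trim63, are printed because these 3 genes carry the metallothionein and ligase results; they come from RefSeq (GRCm38.p6, plus strand), at chr8:94178839-94179088, chr8:94172368-94172617 and chr4:134314870-134315119. Capitals mark matches, on either strand, to the metal response letters TGCACNC or TGCGCNC in Mt1 and Mt2, and in Trim63 to the consensus palindrome of the glucocorticoid receptor and to TGTTTAC, a FoxO letter run.
Mt1: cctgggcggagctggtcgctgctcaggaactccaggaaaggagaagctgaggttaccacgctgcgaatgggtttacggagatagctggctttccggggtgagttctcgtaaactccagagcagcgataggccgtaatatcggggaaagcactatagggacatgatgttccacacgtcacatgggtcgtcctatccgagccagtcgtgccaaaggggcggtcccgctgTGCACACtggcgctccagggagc
Mt2: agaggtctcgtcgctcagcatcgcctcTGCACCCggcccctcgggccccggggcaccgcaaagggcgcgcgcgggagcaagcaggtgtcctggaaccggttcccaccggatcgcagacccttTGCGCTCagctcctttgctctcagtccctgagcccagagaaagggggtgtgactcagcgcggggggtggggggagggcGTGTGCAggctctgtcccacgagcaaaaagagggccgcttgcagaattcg
Trim63: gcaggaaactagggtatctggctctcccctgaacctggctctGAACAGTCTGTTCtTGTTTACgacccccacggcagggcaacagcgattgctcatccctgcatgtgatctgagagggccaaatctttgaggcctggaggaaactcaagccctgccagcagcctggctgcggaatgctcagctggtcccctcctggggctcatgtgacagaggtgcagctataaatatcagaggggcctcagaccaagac
Mt1 held 1 match, 23 bases before its start, and Mt2 held 3, at 223, 128 and 50 bases. Of 32851 promoters of the same 250 bases, 21.4% held such a match, against 7 of the 16 promoters of the zinc list (43.8%). In Trim63 the matches began 208 and 194 bases before the start. The receptor palindrome stood in 13 of all promoters (0.0396%) and in 1 of 45 promoters of the FoxO and glucocorticoid list (2.22%). It stood in 0 of the 32 promoters of that list's genes that rose. TGTTTAC stood in 3.17% of all and in 2 of 45 promoters of the list (4.44%), neither of them a gene that rose. A match is only a run of letters.

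Cytokine-linked genes were less uniform. Of 29 tested genes of the IL-6 family, STAT3 and acute phase, 11 rose and 5 fell (median 0.66), and leaving out control 1, control 2 or tumour 2 left 3, 4 and 3 that rose; 1 fell without control 1 or tumour 1 and 3 without tumour 2. Lcn2, the acute-phase siderophore binder lipocalin-2, was at 0.672 and 1.2 against 19.9 and 56 CPM (5.38 ± 0.73, adjusted p = 0.000178). Il6ra, the receptor chain for IL-6, was at 7.32 and 4.64 against 56.2 and 39.2 CPM. Socs3, the feedback inhibitor of STAT3, was at 3.71 and 3 in controls, 2.35 in tumour 1 and 52.6 in tumour 2. Stat3 was at 35.8 and 27.9 against 44.8 and 129 CPM, and Serpina3n at 4.53 and 2.45 against 9.33 and 25.5 CPM. All 3 passed in the fit of 18 libraries. Fitted on the 4 KPP libraries alone, Socs3 and Stat3 did not pass (adjusted p = 0.0794 and 0.0502). All 3 calls were lost without tumour 2 or control 2, and those of Socs3 and Serpina3n also without control 1. Haptoglobin (Hp) was lower, at 18.2 and 4.84 against 2.06 and 2.36 CPM, a call lost without control 1, tumour 1 or tumour 2. Of 30 NF-kB and TNF receptor genes, 13 rose and 1 fell (median 0.71); without control 1, control 2 or tumour 2, 7, 6 and 8 rose. Eda2r, a TNF receptor family member, was at 12 and 14.2 against 54.6 and 90.4 CPM (2.47 ± 0.38), and Nfkb2 at 8.91 and 8.74 against 22.4 and 29.8 CPM.

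In the insulin and IGF1 list, the growth factor Igf1 fell from 23.7 and 8.19 to 2.6 and 1.51 CPM (-2.97 ± 0.63, adjusted p = 0.00257). Igfbp5, the IGF-binding protein of muscle, fell from 192 and 123 to 7.93 and 6.33 CPM (-4.47 ± 0.51, adjusted p = 7.42e-05). Both genes were lower in each tumour library than in each control. Inside the cell, Akt1 (69.9 and 70.9 against 424 and 261 CPM), Pik3r1 (37.7 and 22.5 against 136 and 242 CPM) and the mTORC1 inhibitor Ddit4 (21.7 and 18.7 against 363 and 267 CPM) rose. Over the 30 genes, 9 rose and 6 fell, 3 of them without control 1. Among 34 genes of myostatin, activin and BMP, 6 rose and 9 fell; 3 rose without control 1, control 2 or tumour 1. Mstn, the muscle growth inhibitor, was at 26.8 and 22.7 against 72 and 47.3 CPM (1.27 ± 0.32), a call lost without control 2 or tumour 1. Gdf11, its closest relative, fell from 6.72 and 6.39 to 0.991 and 0.333 CPM (-3.35 ± 0.58).

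Genes of the ribosome rose almost without exception. Of 83 tested cytosolic ribosomal protein genes, 81 rose and none fell, with a median log2 change of 1.39, and 78 rose without control 1. Rpl10a, a protein of the large subunit, was at 126 and 148 against 481 and 502 CPM (1.84 ± 0.17, adjusted p = 3.06e-05), and Rps28 of the small subunit at 99.7 and 132 against 403 and 468 CPM (1.91 ± 0.21). In share of TPM, a unit per transcript length, the list took 3.84 and 3.71% in the controls and 10.1 and 11.4% in tumour muscle. The 2 tested members that did not pass were Rpl7l1 and Rpl3l, the form of Rpl3 that striated muscle uses. Rpl3l was at 466 and 585 against 420 and 312 CPM (log2 -0.52 ± 0.24, adjusted p = 0.101), while its general counterpart Rpl3 rose from 73.6 and 70.5 to 235 and 385 CPM (2.10 ± 0.29). Ribosomal protein genes have many near-identical pseudogene copies, so the split of fragments among copies is uncertain. Of 40 genes of ribosome biogenesis 30 rose and none fell (median 0.80), 15 without control 1 and 20 without tumour 1. The nucleolar proteins Ncl (172 and 246 against 616 and 645 CPM) and Npm1 (90.8 and 132 against 403 and 350 CPM) were among them. Of 35 translation factors 23 rose and none fell (median 0.80), 15 without control 1, among them Eif3c, Eif2b1 and Eif2b5 at 1.76 ± 0.20, 1.59 ± 0.19 and 1.51 ± 0.18 on the log2 scale.

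**Figure D2:**
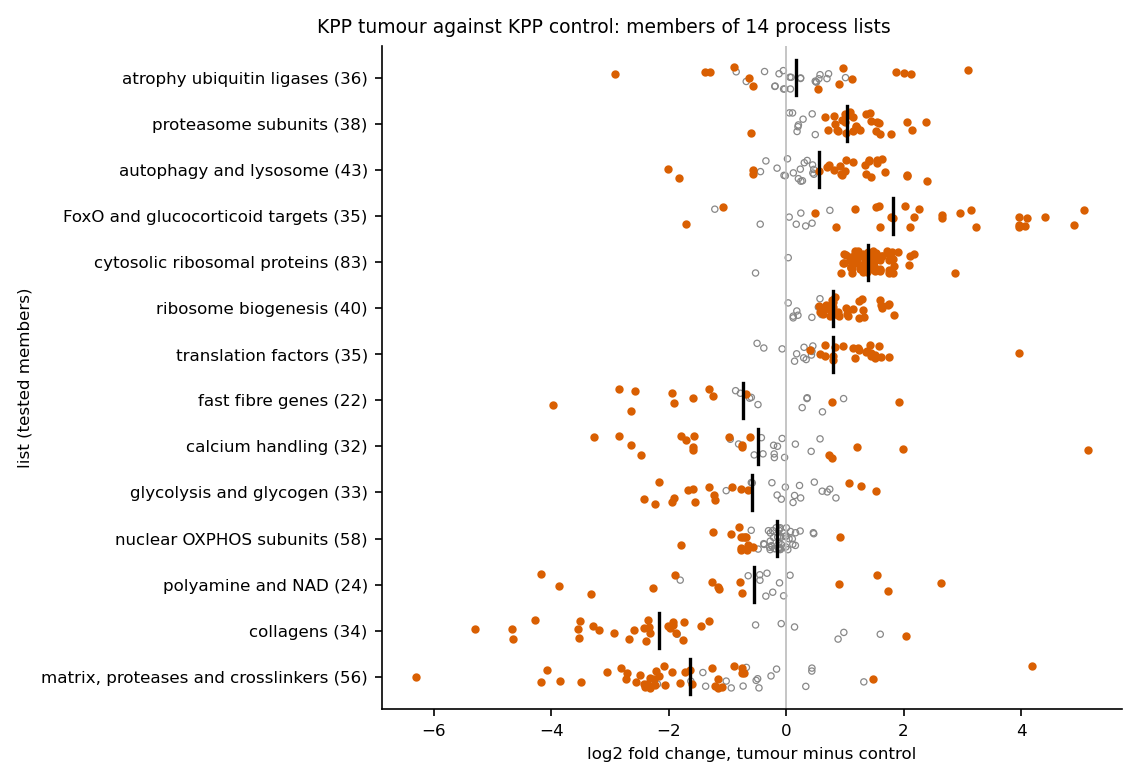
Log2 fold change (tumour minus control) of each tested member of 14 gene lists; filled orange points passed the test, open grey points did not, and the black bar is the list's median. Ribosomal proteins (median 1.39) and proteasome genes (1.04) lie to the right, collagens (-2.17) to the left, and the ubiquitin ligases straddle 0.

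The contractile apparatus changed in make-up. TA muscle runs mainly on the fastest myosin, Myh4 (type IIB), with Myh1 (IIX) as the next slower form. Myh1 was at 8768 and 9204 CPM in the controls and 27546 and 40836 in tumour muscle (1.93 ± 0.33, adjusted p = 0.000704). Myh4 was at 29930 and 38440 against 21685 and 22724 CPM and did not pass (-0.62 ± 0.42, adjusted p = 0.26), although both tumour libraries lay below both controls. In share of the summed TPM of Myh1, Myh2, Myh4 and Myh7, Myh1 went from 22.4 and 18.95% to 55.2 and 63.9%, and Myh4 from 76.1 and 79.1% to 43.6 and 35.6%. Myh2 held 1.52 and 1.94% against 1.17 and 0.487%, and the slow form Myh7 under 0.02% in each library. Of 22 fast-fibre genes 10 fell and 2 rose (median -0.73), also 10 without control 1. Myl1, the fast light chain, was at 9686 and 10568 against 2144 and 1247 CPM (-2.58 ± 0.35). Myoz3, a Z-disc protein of fast fibres, fell from 143 and 155 to 12.3 and 6.84 CPM (-3.96 ± 0.61). Slow-fibre genes did not rise in step: 3 of 18 rose (16.7%, against 17.4% of all tested genes) and 1 fell. Of these only the call of Sln, described below, held with each library left out in turn. Sarcomere and Z-disc genes divided into 12 that rose and 8 that fell of 40, and 7 and 6 rose without control 1 and without tumour 2. Flnc, a filamin recruited to damaged Z-discs (326 and 310 against 1512 and 1108 CPM), and Des, the intermediate filament (3027 and 3974 against 10618 and 8637 CPM), rose. Ldb3, a Z-disc scaffold, fell from 1137 and 1145 to 480 and 483 CPM.

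**Figure D3:**
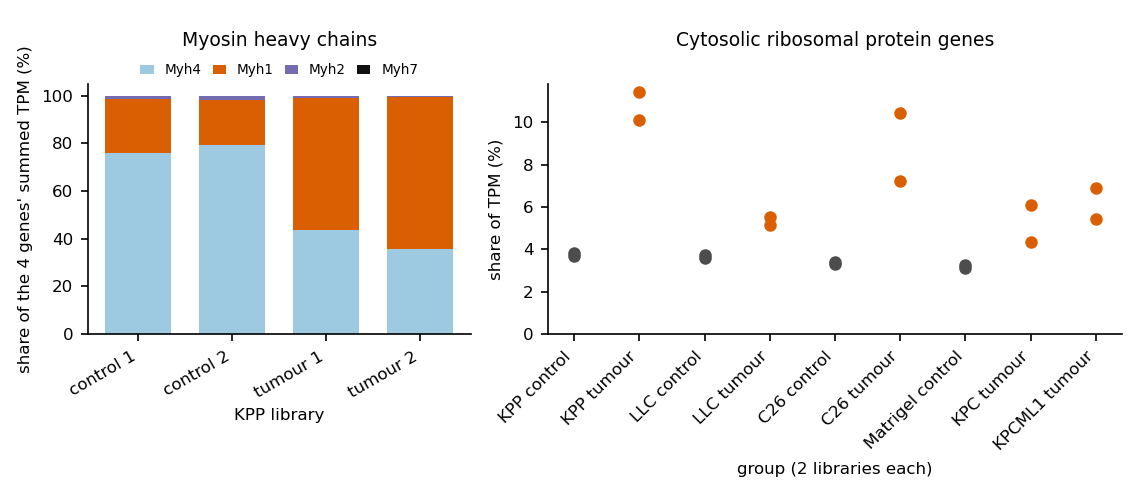
Left, share of 4 myosin heavy chain genes in their summed TPM in each KPP library (stacked bars, percent). Right, share of TPM taken by cytosolic ribosomal protein genes in all 18 libraries (1 point a library; orange, tumour; grey, control); KPP tumour muscle lies at 10.1 and 11.4%, C26 at 7.24 and 10.4%, and no control above 3.84%.

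Several genes of calcium handling and membrane excitability fell. Of 32 genes of calcium handling 13 fell and 5 rose (median -0.48); 3 rose without control 1 or tumour 1. Casq1, the calcium buffer of the fast sarcoplasmic reticulum, was at 1842 and 2105 against 260 and 292 CPM (-2.84 ± 0.29, adjusted p = 4.42e-05). Jph2, which ties the reticulum to the transverse tubule, fell from 931 and 744 to 170 and 133 CPM (-2.47 ± 0.27), and Sypl2 from 246 and 202 to 22.7 and 23.4 CPM. Going the other way, Sln, the sarcolipin that uncouples the calcium pump, was at 0.283 and 1.75 against 9.16 and 59.3 CPM (5.15 ± 0.87, adjusted p = 0.000609), and the release channel Ryr1 was at 1869 and 1472 against 3447 and 4244 CPM. Of 29 ion channels and transporters 13 fell and 7 rose. Kcng4, outside that list, a modifier subunit of voltage-gated potassium channels, fell from 55 and 45.5 to 0.702 and 0.727 CPM, a log2 change of -6.13 ± 0.33 (adjusted p = 3.96e-07), and was at 58.8 to 81.9 CPM in the other controls of the series. The chloride channel Clcn1 fell from 119 and 118 to 34 and 31.9 CPM (-1.85 ± 0.25).

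Of 31 neuromuscular junction and denervation genes 9 rose and 4 fell; 5 rose and 1 fell without control 1, and 4 rose without tumour 2. Runx1, a transcription factor that denervated muscle makes, was at 1.7 and 1.65 against 8.13 and 21.1 CPM (3.13 ± 0.62). Chrna9, a nicotinic receptor subunit outside the list, had the largest rise of all by the naming rule (7.91 ± 1.75), at 0 and 0.3 CPM against 2.85 in tumour 1 and 61.1 in tumour 2. Myog, the myogenic factor, was at 2.37 and 1.3 in controls, 2.06 in tumour 1 and 32.4 in tumour 2, and its call was lost without tumour 2 or control 2 and in the 4 KPP libraries alone. Ache, the synaptic esterase, fell from 29.3 and 18.5 to 4.87 and 9.18 CPM. Of 32 satellite cell and myogenic genes 11 fell and 5 rose (5 fell without control 1 or tumour 1, and 7 without tumour 2). Heyl, a Notch effector of satellite cells and of pericytes, fell from 6.72 and 6.79 to 0.826 and 0.666 CPM (-3.18 ± 0.40), while the satellite cell cadherin Cdh15 rose from 13.4 and 18.4 to 70 and 63.8 CPM (2.08 ± 0.27).

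Of 33 genes of glycolysis and glycogen 14 fell and 3 rose (median -0.58); 5 rose without control 2. The glycogen phosphorylase kinase subunits Phka1 (645 and 633 against 107 and 163 CPM) and Phkg1 (438 and 497 against 106 and 68.4 CPM) and the enzyme Pgm1 (919 and 1033 against 222 and 211 CPM) fell by 2.24, 2.43 and 2.17 on the log2 scale. Gpi1, which makes fructose 6-phosphate, rose from 655 and 824 to 2063 and 2203 CPM (1.53 ± 0.17). Of 58 nuclear OXPHOS genes 13 fell and 1 rose, but the median was only -0.16, and 3 fell without control 2 or without tumour 2. Of this list 22.4% fell, near the 19.3% of all tested genes. Ndufs1, a complex I subunit, was at 411 and 562 against 214 and 196 CPM (-1.25 ± 0.21), and Cox7a1, the muscle form of a complex IV subunit, at 312 and 431 against 162 and 51.5 CPM. None of 15 mitochondrially encoded genes passed, at a median of -0.84 (edgeR). The count that fell was 5 with DESeq2, 8 with C57BL/6 libraries only, 12 with no filter on low counts, 3 with a crossed replicate block, and 2 without control 1 or tumour 1. For mt-Co1 the levels were 41800 and 61186 against 28106 and 25739 CPM (log2 -0.94 ± 0.37, adjusted p = 0.0623). Mitochondrial genes took 17.5 and 22.4% of fragments in controls and 11.9 and 10.4% in tumour muscle. Of 31 genes of the citric acid cycle and pyruvate 9 fell and 2 rose (3 fell without control 2 and 2 without tumour 2). Of 24 genes of PGC-1, ERR and PPAR 6 fell and 3 rose (1 rose without tumour 2). Sirt3, the mitochondrial deacetylase, fell from 19.8 and 22.6 to 4.79 and 3.69 CPM (-2.33 ± 0.22, adjusted p = 3.18e-05), and Perm1, a muscle regulator downstream of PGC-1, from 222 and 294 to 72 and 46.2 CPM. Ppargc1a, which encodes PGC-1α, was at 33.2 and 33.9 CPM in controls, 19.4 in tumour 1 and 236 in tumour 2; its call was lost without control 1, control 2 or tumour 2, in the 4 KPP libraries alone and with C57BL/6 libraries only. Fatty acid genes were mixed: 10 of 44 rose (22.7%) and 5 fell (11.4%), against 17.4% and 19.3% of all tested genes.

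Polyamine, NAD and clock genes held some of the clearest falls. Amd1, which makes the aminopropyl donor of polyamine synthesis, fell from 364 and 563 to 18.2 and 33.1 CPM (-4.17 ± 0.46, adjusted p = 6.02e-05). Smox, the spermine oxidase, fell from 441 and 292 to 35 and 38.1 CPM (-3.33 ± 0.35, adjusted p = 4.95e-05). Nmrk2, the muscle nicotinamide riboside kinase, fell from 118 and 155 to 19.2 and 37.4 CPM. In this list 10 of 24 fell and 4 rose, among the latter Sat1, which acetylates spermidine and spermine (19.8 and 17.6 against 56.4 and 53.4 CPM). Amd1 and its near-identical copy Amd2 share sequence, so the division between them is uncertain. Of 22 clock genes 8 fell and 7 rose (4 rose without tumour 2). The output factor Dbp fell from 126 and 123 to 9.33 and 3.94 CPM (-4.24 ± 0.35, adjusted p = 2.97e-05), Bhlhe41 from 58.2 and 71.5 to 12.4 and 11.8, and Nr1d1 from 70.8 and 86.5 to 30.7 and 27.4. Arntl, the positive arm (7.68 and 14.7 against 30.8 and 34.6 CPM, a call lost without control 1) and Cry2 (33 and 33.1 against 129 and 457 CPM) rose. The hour of dissection is not given in the labels, and its part in the clock genes was not tested.

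Genes of the extracellular matrix fell broadly. Of 34 tested collagen genes 26 fell and 1 rose, with a median log2 change of -2.17, and 20 fell without control 1. Col3a1 was at 197 and 86.2 CPM in controls and 4.5 and 2.73 in tumour muscle (-5.30 ± 0.61, adjusted p = 7.42e-05). Col1a1 was at 162 and 40.3 against 2.39 and 5.48 CPM (-4.66 ± 0.83, adjusted p = 0.000897). Control 1 was the higher control for both, and control 2 alone was still far above both tumour libraries. Of 56 further matrix, protease and crosslinking genes 37 fell and 2 rose (median -1.63), 27 without control 1. Sparc, a collagen-binding protein, fell from 340 and 182 to 58.4 and 44.4 CPM (-2.35 ± 0.30), and Serpinh1, the collagen chaperone, from 58.2 and 37.1 to 9.25 and 12.1 CPM. The exceptions were Adamts4, an aggrecan-cleaving protease, at 0.141 and 0.0499 against 0.867 and 2.94 CPM, and Thbs1, at 7.25 and 3.55 against 10 and 20.3 CPM, whose call was lost without control 1, control 2 or tumour 2, with C57BL/6 libraries only and with length-scaled counts. The collagen that rose was Col20a1.

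Markers of most cells between the fibres fell as well. Of 22 endothelial genes 17 fell and none rose (median -1.44), 12 without control 1 and 13 without tumour 2. Tek, the angiopoietin receptor, was at 22.8 and 24.7 against 5.28 and 7.78 CPM (-1.85 ± 0.23, adjusted p = 9.66e-05). Kdr, the main VEGF receptor, was at 30.2 and 30.4 against 3.88 and 3.12 CPM, and Eng at 31.6 and 25.5 against 6.15 and 7.72 CPM. Pecam1, the general endothelial marker, changed less, at 61.4 and 69.4 against 29.6 and 49.8 CPM (-0.72 ± 0.26), and Gpihbp1 and Cldn5 did not pass. Of 17 pericyte and smooth muscle genes 13 fell and 1 rose, the latter Des, which myofibres make (7 fell without tumour 1). Of 20 fibro-adipogenic progenitor genes 11 fell and 2 rose (median -1.29). Pi16, which marks a stem-like subset, fell from 30.1 and 26.1 to 1.45 and 0.333 CPM (-5.05 ± 0.75), while Apod rose from 49.1 and 63.2 to 199 and 149 CPM. Of 14 tenocyte genes 11 fell and 1 rose (median -3.89), 6 without control 1 and 7 without tumour 1. Kera, Chad and Tnmd, all tendon genes, lay at 4.09 to 18 CPM in controls and at most 0.619 in tumour muscle. Of 18 Schwann cell genes 8 fell and none rose (5 fell without tumour 2), and the list's summed level was 70.2 and 93 against 40.4 and 37.7 CPM. Of 15 adipocyte genes 10 fell and 1 rose (median -2.76), 7 without control 1, 6 without tumour 1 and 7 without tumour 2. Adipoq was at 8.14 and 6.89 against 0.578 and 0.636 CPM, and Fabp4, which endothelium shares, did not pass.

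**Figure D4:**
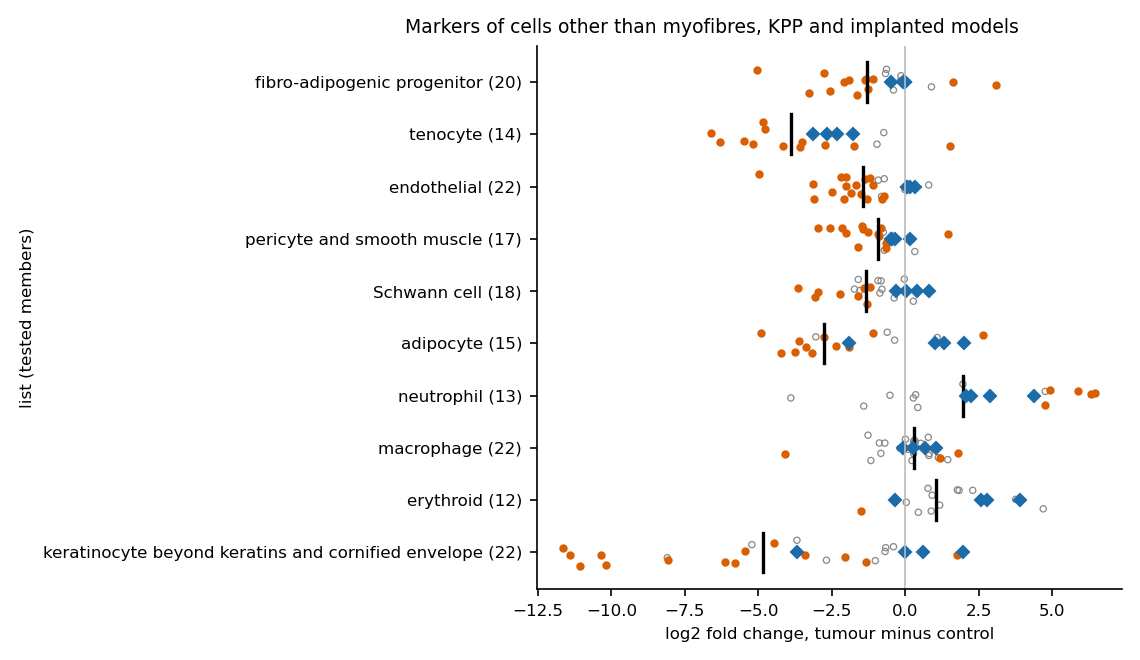
Log2 fold change of each tested marker of cells other than myofibres in KPP muscle (orange, passed the test; open grey, did not; black bar, median), with the median of the same list in each of the 4 implanted models (blue diamonds). Endothelial markers lie at a median of -1.44 in KPP and at 0.04 to 0.34 in the implanted models, while tenocyte markers are low in all.

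Of 13 neutrophil genes 5 rose and none fell (3 rose without tumour 2). S100a8 was at 0.212 and 0.499 against 8.05 and 46.4 CPM (6.31 ± 1.02, adjusted p = 0.00049) and S100a9 at 0.283 and 0.4 against 7.84 and 10.2 CPM (4.74 ± 0.50). Their summed level over the list was 7.5 and 3.9 CPM in controls and 22.5 and 66.3 CPM in tumour muscle. Chil3, made by neutrophils and some macrophages, had 3 counts in controls and 941 in tumour muscle. Of these, 64 were in tumour 1 and 877 in tumour 2 (2.64 and 26.6 CPM). The pooled ratio was 265 (95% interval 90.3 to 1285). The interval covers counting error only and not the spread between libraries. Of 22 macrophage genes 2 rose and 1 fell; none rose without control 2 and 1 rose without tumour 2. Haemoglobin genes were high in tumour 1 alone, with Hbb-bs at 1872.5 CPM against 199 in tumour 2 and 181 and 404 in controls (adjusted p = 0.0734). Of 12 erythroid genes none rose and 1, Bpgm, fell; 5 rose without tumour 2 and 2 fell without tumour 1. Interferon and antigen-presentation genes fell, by counts that rest on control 1: 21 of 37 interferon genes fell and none rose (median -0.96), 5 without control 1 and 11 without tumour 1. Of 22 antigen-presentation genes 14 fell and 1 rose, 0 without control 1 and 4 without tumour 2. H2-Ab1 was at 45 and 15.4 against 7.6 and 2.69 CPM, a call lost without control 1 or tumour 2, and Oasl2, an interferon target, at 3.15 and 2.3 against 0.413 and 0.606 CPM. Skin is rich in antigen-presenting cells, and its part in these counts was not tested. Of 23 complement genes 11 fell and 1 rose, 7 without control 1 or tumour 2. Among 22 chemokine genes 6 rose and 6 fell (2 rose without control 2, 2 fell without control 1, and 1 did each without tumour 2), with Cxcl13 up from 0.389 and 0.25 to 8.17 and 4.12 CPM and Cxcl12, which stromal cells make, down from 67.3 and 64.8 to 11.9 and 12.6 CPM (-2.43 ± 0.27).

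A few other genes with large changes belong to none of these lists. Gnmt, a methyltransferase that liver uses to dispose of methionine, was at 0.354 and 0.999 against 21.3 and 19.3 CPM (4.96 ± 0.66, adjusted p = 0.000153). Pnmt, the enzyme that makes adrenaline, was at 0.566 and 1.15 against 19.6 and 16 CPM (4.41 ± 0.83). Both genes were evenly high in the 2 tumour libraries. Pcdh12, a protocadherin of endothelium, fell from 5.59 and 5.44 to 0.0413 and 0.0909 CPM (-6.23 ± 0.61, adjusted p = 3.18e-05). Chosen after their values were seen, Mylk4, a muscle myosin kinase, fell from 542 and 588 to 49.1 and 5.91 CPM, Tmem233 from 136 and 151 to 5.12 and 5.63, and Plcd4, a phospholipase C, from 75.8 and 74 to 2.93 and 2.76.

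The KPP effect was then set against the mean effect of the 4 implanted models, by a test of the difference itself. In this test 667 genes (4.14%) passed, of which 243 (1.51%) were more positive and 424 (2.63%) more negative in KPP; with size factors by relative log expression the split was 397 and 383. The result rests on control 1, without which 11 genes passed, and among the 69 genes named below and in the closing section that passed, 3 (Cyp2e1, Mmrn2 and Tek) still did. Without tumour 2, 149 genes passed. With the CD2F1 libraries left out, 677 passed.

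Endothelial markers held the most even difference: 13 of 22 were more negative in KPP and none more positive, with a median difference of -1.69, and -1.63 over the same genes without control 1, when 2 passed; without tumour 2, 5 passed. Mmrn2, an endothelial matrix protein, was at 16.4 and 16 against 3.88 and 4.09 CPM, a log2 change of -2.02 in KPP and of 0.01 on average in the implanted models (difference -2.03, adjusted p = 0.00683). Tek changed by -1.85 in KPP and by -0.43, 0.30, -0.40 and 0.24 in LLC, C26, KPC and KPCML1 (difference -1.79, adjusted p = 0.0109). Adipocyte markers differed by a median of -3.72 (7 of 15 more negative), which was -1.81 with none passing when control 1 was left out; 4 passed without tumour 1 and 2 without tumour 2. Adipoq changed by -3.62 in KPP and -2.60 in C26, and by 2.50 and 2.74 in LLC and KPC, with KPCML1 also positive. Cyp2e1, a cytochrome of liver and fat, showed the largest difference by the naming rule, -5.74 (adjusted p = 0.00683), at 20.3 and 4.84 against 0.784 and 0.575 CPM in KPP. It changed by -4.22 in KPP and by 3.11, -1.97, 2.08 and 2.85 in LLC, C26, KPC and KPCML1. The other controls of the series lay at 0.113 to 3.64 CPM, below both KPP controls, and what part this has was not tested. Of the matrix genes 13 of 56 were more negative, of complement 8 of 23, of antigen presentation 6 of 22, and none of these passed without control 1 or without tumour 2; without tumour 1 it was 3, 3 and 4, and without control 2, 14 antigen-presentation genes passed.

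On the positive side, 35 of 83 ribosomal protein genes rose more in KPP than in the implanted models and none less, with a median difference of 0.85; it was 0.68 without control 1, when none passed, and 0.91 without tumour 2, when 1 passed. Without tumour 1, 20 passed, and without control 2, 56. Rpl10a changed by 1.84 in KPP and by 0.36, 1.32, 0.83 and 0.59 in LLC, C26, KPC and KPCML1 (difference 1.07, adjusted p = 0.0156). Myh1 rose by 1.93 in KPP and changed by -0.17 to 0.62 in the implanted models (difference 1.73, adjusted p = 0.0285). Cdhr3, a cadherin-related protein, was at 0.106 and 0.3 against 6.32 and 20.6 CPM in KPP and had the largest positive difference, 5.17 (adjusted p = 0.0145). Cdhr3 changed by 6.11 in KPP and by -1.26, 3.02, 1.62 and 0.37 in LLC, C26, KPC and KPCML1. Pdk4, which did not pass in KPP, rose by 2.93 on average in the implanted models, a difference of -2.76 (adjusted p = 0.0256). Its KPP controls, at 368 and 1010 CPM, lay above the other controls of the series, at 141 to 305 CPM. What part this has in the difference was not tested. For Trim63, Cdkn1a, Mt1 and Eda2r no difference from the implanted models passed, with differences of -0.35, -0.12, 0.60 and 0.05 and adjusted p of 0.734, 0.96, 0.671 and 0.982; this does not show that the effects are equal.

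**Figure D5:**
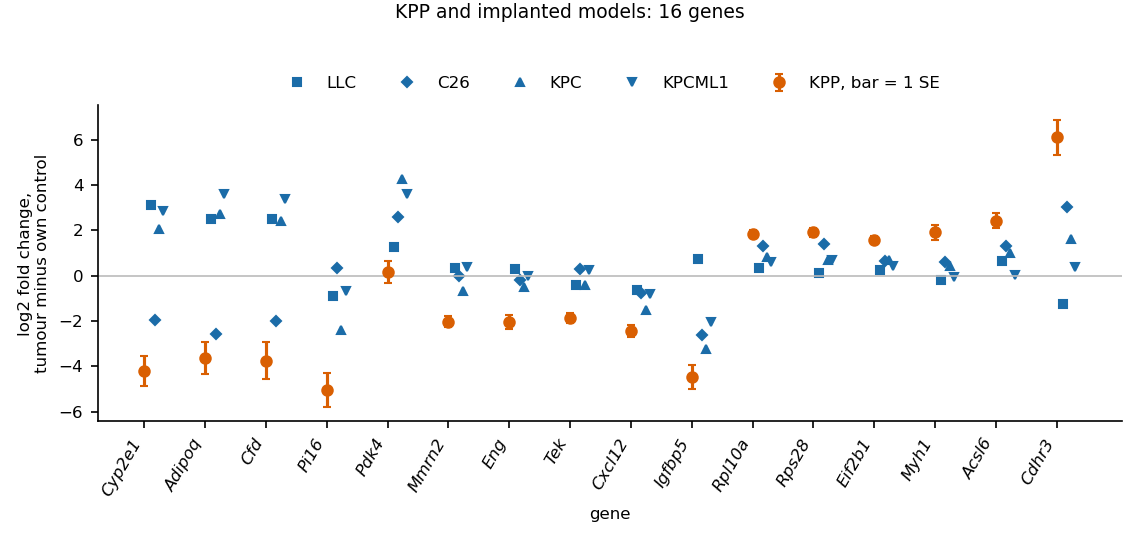
Log2 fold change (tumour minus own control) of 16 genes that passed the test of the difference, in KPP (orange, bar 1 SE) and in LLC, C26, KPC and KPCML1 (blue symbols). Mmrn2, Eng and Tek lie near -2 in KPP and near 0 elsewhere; KPC and KPCML1 share their control libraries.

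The authors' deposited table of the KPP comparison, made with DESeq2, lists 24569 genes, 1810 higher and 1355 lower at an adjusted p under 0.05. Over 13789 genes matched by symbol its log2 fold changes correlated with those here at r = 0.954 (across genes, which are not independent replicates), from the same libraries. In it Trim63 changed by 3.13, Cebpd by 4.46, Mt1 by 4.99, Col3a1 by -5.52, Dbp by -4.05 and Kcng4 by -6.10. Of the matched genes that passed in the authors' deposited table, 95.1% passed here, and of those that passed here 54.3% passed there.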

How the data were processed

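Poly(A) RNA of tibialis anterior muscle was sequenced, with 2 libraries labelled as biological replicates in each of 9 groups. The p-values measure the spread between these, estimated over all 9 groups together. In log2 CPM over tested genes, the KPP controls correlated at 0.959 and the KPP tumour libraries at 0.968. The other groups lay at 0.971 to 0.983, so the shared spread may be too small for KPP. Per the submitters' processing notes, the authors used bcl2fastq 2.20, FastQC, Salmon and DESeq2; no source used here gives Salmon's version, its strand setting or the transcript release. Salmon divides fragments among like transcripts by an estimate, so near-identical genes share them. The deposited files hold estimated counts and TPM per transcript. The authors' deposited comparison table holds log2 fold changes and adjusted p-values.

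Estimated counts were summed per gene (GENCODE M21; 139958 of 140825 transcripts matched) and rounded. edgeR 4.0.16 (R 4.3.3) fitted all 9 groups over 18 libraries, with TMM scaling, its filter on low counts, the quasi-likelihood test and Benjamini-Hochberg adjustment at 0.05 over 16096 genes. The contrast was KPP tumour minus KPP control. A further contrast took the KPP effect minus the mean of the 4 implanted effects. A fold change here is log2 and ± is its standard error. The test was checked on simulated data for the KPP comparison: of 15830 genes, 100 changed 2-fold and 100 changed 4-fold, of which 28% and 95% were called. With 2 libraries a group, most 2-fold changes were missed in this simulated setting. Intervals cover counting error only.

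Members and lists were chosen with earlier results of these data known. Genes were named by rule: a panel of 30, the 12 largest changes each way and the 8 largest differences each way (mean of at least 5 CPM), and up to 4 passing genes of smallest p per list and direction. Fkbp5, Klf15, Kdr, Pecam1, Cldn5, Gpihbp1, Fabp4, Rpl3, Rpl3l, Rpl7l1, mt-Co1 and Hbb-bs were named outside it, after their values were seen. Promoters, 250 bases before each start, came from RefSeq. Alternatives were DESeq2 1.42.0, other size factors, no filter, length-scaled counts, a fold threshold of 2, fewer groups, replicate blocks, and each library left out. Some genes that the rule would name are not reported here; they stayed in the fit and in each list's counts.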

Additional observations from a re-analysis of the deposited data

Results flagged for a closer look

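The 69 named genes below differed between KPP and the mean of the 4 implanted models at an adjusted p under 0.05 (edgeR, test of the difference itself). Each value is the log2 fold change in KPP minus that mean, so a negative value is a lower effect in KPP. Leaving out control 1 ended the call of all but Cyp2e1, Mmrn2 and Tek.

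Endothelial, pericyte and progenitor genes that were more negative differed as follows: Eng by -1.93, Mmrn2 by -2.03, Tek by -1.79, Sox7 by -1.92, Cspg4 by -1.63, Ndufa4l2 by -1.30, Pi16 by -4.13, Cd34 by -1.03, Cd55 by -1.0 and Smoc2 by -0.98. Adipocyte, lipid and pyruvate genes that were more negative differed as follows: Adipoq by -5.18, Cfd by -5.32, Plin1 by -5.40, Lipe by -1.77, Mgll by -1.80 and Pdk4 by -2.76. Acsl6 differed by 1.67. Schwann cell genes that were more negative differed as follows: Drp2 by -1.92 and Sox10 by -2.84. Matrix, growth factor, Notch and cell surface genes that were more negative differed as follows: Col6a6 by -1.95, Dpt by -1.63, Lamb1 by -1.73, Sparc by -1.38, Bmp1 by -1.32, Igfbp5 by -2.67, Heyl by -2.43, Sdc3 by -1.39 and Itga6 by -1.65. Col20a1 differed by 1.96. Complement, acute phase and immune genes that were more negative differed as follows: C1s1 by -1.61, C4b by -2.72, Hp by -4.60, Oasl2 by -2.01, Tap1 by -1.86, Tapbp by -1.17 and Cxcl12 by -1.50. Masp1 differed by 1.76. The ribosome and translation genes were all more positive in KPP, Rpl10a by 1.07, Rps19 by 1.06, Rps28 by 1.19, Eif2b1 by 1.07, Eif2b5 by 0.89 and Eif3c by 0.94. Calcium, channel, ubiquitin ligase and autophagy genes that were more negative differed as follows: Jph2 by -1.15, Sypl2 by -1.69, Cacna1h by -2.61, Kcng4 by -2.17, Asb15 by -1.65 and Ulk2 by -1.37. Myh1 differed by 1.73. Metabolic, transport and clock genes that were more negative differed as follows: Sms by -1.05, Sod3 by -2.72, Slc1a5 by -1.56, Slc36a2 by -4.47 and Dbp by -1.51. Dbp changed by -4.24 in KPP and by 0.19, -3.47, -4.78 and -2.86 in LLC, C26, KPC and KPCML1, so it fell more in KPC than in KPP. More positive in KPP were Cox6a2 by 0.84, Gpi1 by 1.04, Paox by 1.72, Bckdhb by 1.01 and Slc15a2 by 4.88. Slc15a2 changed by 3.49 in KPP and by -5.80, -1.29, 1.59 and -0.08 in LLC, C26, KPC and KPCML1. Its level was 2.83 and 7.54 CPM in the KPP controls, 14.7 in tumour 1 and 100 in tumour 2. Genes in none of the lists that were more negative differed as follows: Cyp2e1 by -5.74, Mybph by -3.58 and Pcdh12 by -3.72. Also more positive in KPP were C1qtnf4 by 1.79, Car14 by 1.77, Ccdc136 by 1.78, Cdhr3 by 5.17, Hist1h4h by 1.98 and Ppp1r3f by 2.18.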

How the results depend on the processing

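For tumour against control (5912 genes: 2805 higher, 3107 lower), fitting the 4 KPP libraries alone gave 3424 (1795 higher, 1629 lower), with 2 residual degrees of freedom, and requiring a change beyond a fold of 2 gave 1154 (437 and 717). Leaving out each library gave 3193 to 5035 genes, 1482 to 2629 higher and 1711 to 2705 lower; the lone library of an arm is then assumed to vary like other groups. For the difference from the implanted models (667 genes: 243 higher, 424 lower), DESeq2 gave 1572 (820 and 752), no filter 1794 (781 and 1013), length-scaled counts 298 (125 and 173), and relative log expression factors 397 higher and 383 lower; leaving out each library gave 11 to 853, with 2 to 392 higher and 9 to 461 lower. The cause was not tested. Myh7 held 0.00211% of the summed estimated counts in controls. Libraries of the same replicate number did not deviate together (correlation of deviations over genes -0.172). With 2 libraries a group, this cannot decide whether they were paired. With the replicate block 5713 genes passed, and with crossed numbers, added after seeing the data, 6220. Over the libraries left out, the Socs3 log2 fold change ranged from -0.45 to 3.96, the Ppargc1a log2 fold change from -0.72 to 2.82 and the Adamtsl2 log2 fold change from -0.06 to 3.98, each lowest without tumour 2, and the Perp log2 fold change from -4.36 to 0.79, highest without control 1.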

Other observations

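Amino acid carriers divided by gene. Of 26 genes of amino acid and peptide transport 8 rose and 6 fell (4 rose without control 1 or tumour 2). Bckdhb, a subunit of the enzyme that breaks down branched-chain keto acids, rose by 1.64 on the log2 scale (adjusted p = 0.000196, edgeR), and Slc1a5, a glutamine carrier, changed by -1.60 (adjusted p = 0.00399).

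The 2 tumour libraries differed from each other in single genes. Nr4a3, an immediate early gene, was at 0.578 CPM in tumour 1 and 49.2 in tumour 2, against 16.8 and 10.1 in the controls (adjusted p = 0.622). Socs7 was at 25.8 CPM in tumour 1 and 0.212 in tumour 2, against 0.425 and 0.35 in the controls. These genes were chosen after their values were seen.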
